A study of Mus musculus with 12 samples.

Results

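The HOX genes are the protein coding genes of the 4 mouse clusters Hoxa, Hoxb, Hoxc and Hoxd. Membership was set by gene symbol and biotype, from a table of 54532 gene identifiers, while the family itself was chosen with earlier results of these data known. There were 39 of them, 11 in the A cluster, 10 in B, 9 in C and 9 in D. They carried 40 identifiers, because Hoxd4 was listed under 2 gene models, and the second model held few counts. In mm10 coordinates the A cluster spanned 105 kb of chromosome 6 (52155590 to 52260880, minus strand). The B cluster spanned 174 kb of chromosome 11 (96194316 to 96368256, plus strand). The C cluster spanned 116 kb of chromosome 15 (102921103 to 103036852, plus strand), and the D cluster 96.8 kb of chromosome 2 (74668310 to 74765142, plus strand).

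RNA was measured in fetal ovaries on embryonic day E15.5 from embryos that carried the Tg(Pou5f1-EGFP)2Mnn reporter, a transgene whose GFP marks germ cells through a Pou5f1 (Oct4) promoter. Dams were injected intraperitoneally with 10 µg of dexamethasone (dex), a synthetic glucocorticoid, per g of body weight, or with saline, on each of 4 days from E12.5 to E15.5. Mesonephroi were cut away, and the dissociated ovaries were sorted into germ cells (Pou5f1-GFP+) and somatic cells (GFP-), the latter a mixture of all other ovarian cells. Each of the 4 groups (germ or soma, dex or saline) held 3 libraries, each of which pooled ovaries from more than one independently dosed litter, and germ and somatic libraries came from the same treatment scheme and reporter line. The p-values measure the spread between these pools.

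HOX proteins are homeodomain transcription factors that give cells their position along the head to tail axis. Within each cluster the genes lie in the order in which they are used along that axis, so that the paralog number, from 1 at the 3' end to 13 at the 5' end, runs from anterior to posterior identity. Polycomb complexes keep clusters silent where they are not used, trithorax proteins keep them active, and TALE homeodomain proteins (PBX, MEIS and PKNOX) bind DNA together with HOX proteins. In the female reproductive tract the posterior genes of the A cluster pattern the Müllerian duct.

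The 250 bases before the RefSeq start (GRCm38.p6) are shown for 5 of the genes on which the results turned and for which a window was at hand. Hoxa10 and Hoxd13 had windows at hand too but are not shown. Hoxa13, Hoxd1 and Hoxd8 were higher in germ cells than in somatic cells, and Hoxa5 and Hoxa11 were higher in dex-exposed somatic cells. The windows are chr6:52260881-52261130 (minus strand) for Hoxa13, chr2:74762730-74762979 (plus strand) for Hoxd1, chr2:74704365-74704614 (plus strand) for Hoxd8, chr6:52204588-52204837 (minus strand) for Hoxa5 and chr6:52245811-52246060 (minus strand) for Hoxa11. Capitals mark CG dinucleotides, the letters that make up a CpG island, and the sequences are written 5' to 3' on the strand of the gene.
Hoxa13: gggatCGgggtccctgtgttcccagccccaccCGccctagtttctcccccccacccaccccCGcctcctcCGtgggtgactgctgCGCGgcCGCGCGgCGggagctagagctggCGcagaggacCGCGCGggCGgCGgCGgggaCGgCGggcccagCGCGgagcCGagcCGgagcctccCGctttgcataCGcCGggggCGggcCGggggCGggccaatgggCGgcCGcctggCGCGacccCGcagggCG
Hoxd1: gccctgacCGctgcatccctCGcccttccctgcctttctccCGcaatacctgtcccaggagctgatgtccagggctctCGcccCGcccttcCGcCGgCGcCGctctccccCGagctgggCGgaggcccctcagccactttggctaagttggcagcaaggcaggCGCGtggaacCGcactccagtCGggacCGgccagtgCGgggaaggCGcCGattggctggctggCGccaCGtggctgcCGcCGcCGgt
Hoxd8: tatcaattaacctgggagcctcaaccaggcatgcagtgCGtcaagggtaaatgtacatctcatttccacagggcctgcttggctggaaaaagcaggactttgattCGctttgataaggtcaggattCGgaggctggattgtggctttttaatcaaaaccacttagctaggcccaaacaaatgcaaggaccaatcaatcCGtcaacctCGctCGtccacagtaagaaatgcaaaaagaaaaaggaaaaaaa
Hoxa5: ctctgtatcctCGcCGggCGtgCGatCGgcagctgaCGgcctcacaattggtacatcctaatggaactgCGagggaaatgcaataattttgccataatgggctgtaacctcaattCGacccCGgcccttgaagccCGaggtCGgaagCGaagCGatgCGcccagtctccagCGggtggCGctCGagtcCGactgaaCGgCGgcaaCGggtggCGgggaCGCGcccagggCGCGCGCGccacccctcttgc
Hoxa11: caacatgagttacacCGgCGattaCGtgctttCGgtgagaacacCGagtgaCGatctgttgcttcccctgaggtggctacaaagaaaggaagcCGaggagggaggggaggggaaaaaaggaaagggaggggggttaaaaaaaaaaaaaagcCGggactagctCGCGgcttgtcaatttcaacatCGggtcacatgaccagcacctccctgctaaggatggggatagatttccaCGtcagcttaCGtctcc
The Hoxa13 stretch held 35 CG dinucleotides, Hoxa5 28 and Hoxd1 24, against 13 for Hoxa11 and 6 for Hoxd8. Hoxd8, the most abundant HOX transcript of the germ cells, thus had the fewest CG dinucleotides of the 5.

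Each library held 14658503 to 18245507 counts over all genes, and a count of 3 or fewer was treated as not detected. This corresponded to 0.169 to 0.196 CPM, the counts scaled to the library total after its adjustment by TMM scaling. The sort followed the labels. The 8 summed germ cell markers lay at 2565 to 3138 CPM in the germ libraries against 2.95 to 20.5 CPM in the soma, and the 8 summed stromal markers at 19400 to 25620 CPM in the soma against 120 to 255 CPM in the germ libraries. The 9 summed pregranulosa markers were separated less, at 36.8 to 75.2 CPM in saline germ libraries against 877 to 905 CPM in saline soma. With dex these were at 24.7 to 110 CPM in germ libraries against 671 to 955 CPM in soma.

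In the saline soma, HOX transcripts were abundant and were led by central genes of the A and C clusters. Together the HOX genes made up 699 to 757 CPM, and 31 of the 39 exceeded 3 counts in all 3 libraries. Levels are compared between genes in FPKM, fragments scaled to gene length and library depth. The highest was Hoxa5, which acts in the patterning of the cervical and thoracic region and of the lung, at 36.7 ± 2.50 FPKM (SD, n = 3). Hoxc8 (30.5 ± 3.88 FPKM) and Hoxc6 (29.4 ± 2.91 FPKM), both thoracic patterning genes, came next.

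By library, Hoxa5 was at 39.1, 36.9 and 34.1 FPKM in saline soma replicates 1 to 3, and Hoxa6, its neighbour, at 17.6, 17.3 and 16.8. Hoxc8 was at 34.9, 28.1 and 28.4 FPKM, and Hoxc6 at 31.0, 26.1 and 31.3. Hoxa5 thus lay above both Hoxc8 and Hoxc6 within each library, while the ranges of Hoxa5 and Hoxc8 over the libraries overlapped and those of Hoxc8 and Hoxc6 did too. In the D cluster, Hoxd9 stood at 18.9, 21.4 and 23.0 FPKM and Hoxd8 at 14.2, 11.6 and 13.8, with no overlap between the pair. The B cluster was the lowest of the 4, and its leading genes were Hoxb6 at 9.59, 7.75 and 9.27 FPKM and Hoxb7 at 4.16, 4.48 and 5.15.

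Further A cluster genes of the saline soma ran from Hoxa7 (10.3 ± 0.422 FPKM), Hoxa10 (9.88 ± 0.226), Hoxa3 (6.04 ± 0.527) and Hoxa9 (5.85 ± 0.0611) to Hoxa2 (4.59 ± 0.113), Hoxa4 (3.14 ± 0.768) and Hoxa11 (1.97 ± 0.520). In the B cluster the others lay between 1.48 FPKM (Hoxb2) and 4.25 FPKM (Hoxb5), with Hoxb1, a hindbrain gene, at 0.0613 FPKM, at or near the floor. The C cluster genes after the leading pair were Hoxc4 (20.4 ± 1.54 FPKM), Hoxc5 (14.3 ± 1.23), Hoxc9 (9.79 ± 0.645) and Hoxc10 (8.96 ± 0.119), with Hoxc11 at 0.288 FPKM. In the D cluster Hoxd10 (9.33 ± 0.614 FPKM) and Hoxd11 (1.53 ± 0.114) followed, while Hoxd3 (0.865), Hoxd4 (0.251), Hoxd1 (0.165), Hoxd12 (0.113) and Hoxd13 (0.0639) were all under 1 FPKM. Exons of Hoxb3 and Hoxd3 overlap other gene models over more than 50% of their bases, so their counts are uncertain. Hoxa13, Hoxb13, Hoxc12 and Hoxc13 had no count in the 3 saline somatic libraries.

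The C cluster contributed 39.7 ± 0.779% of the summed HOX FPKM of the saline soma, the A cluster 33.7 ± 1.32%, the D cluster 16.3 ± 0.754% and the B cluster 10.4 ± 0.513% (SD, n = 3). By paralog number, the central genes 4 to 8 made up 69.6%, the posterior genes 9 to 13 24.7% and the anterior genes 1 to 3 5.67%. Paralog groups 5 and 6 were the highest at 55.3 and 55.6 FPKM in sum, followed by group 8 at 45.8, group 9 at 38.5, group 10 at 28.2 and group 4 at 27.9. Levels then fell steeply at the 5' ends of the clusters. Group 11 summed to 3.79 FPKM, group 12 to 0.113 and group 13 to 0.0639, so that Hoxa10 (9.88 FPKM), Hoxc10 (8.96 FPKM) and Hoxd10 (9.33 FPKM) were the last genes of their clusters with a level above 2 FPKM.

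In the C cluster the somatic level fell with paralog number, Spearman's rho with mean FPKM being -0.85 over its 9 genes in saline. The coefficient was -0.07 over the 11 genes of A, 0.01 over the 10 of B and -0.23 over the 9 of D, and the genes of a cluster share libraries and neighbours, so these are descriptions. Hoxc12 had no count in any of the 12 libraries and Hoxc13 none in the 6 somatic ones, and Hoxa13 had a single count in 1 somatic library. For a gene with no count, the floor of 3 counts leaves room for up to 0.194 CPM in the saline soma.

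**Figure D1:**
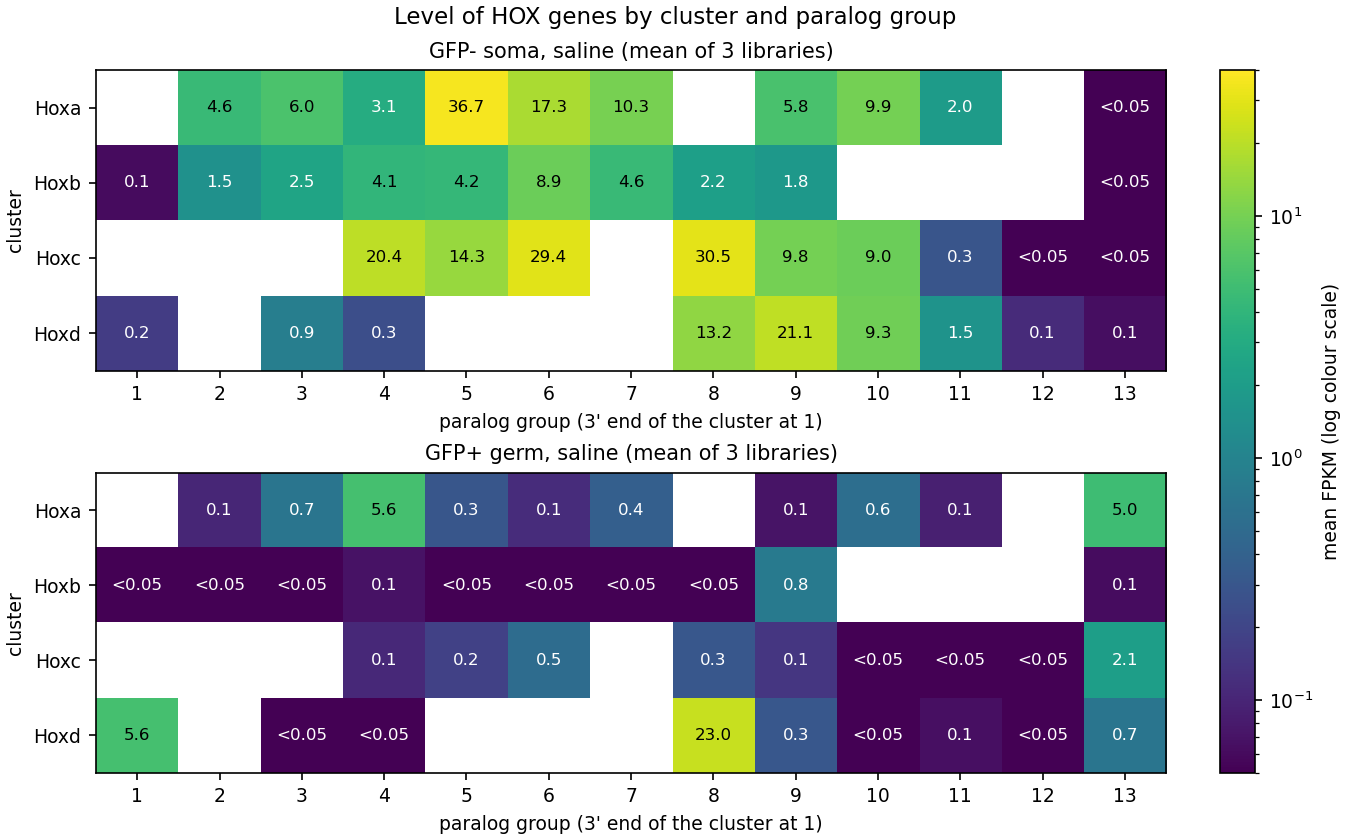
Mean deposited FPKM (log colour scale, printed in each cell) of the HOX genes by cluster (rows) and paralog group (columns, 1 to 13) in the saline GFP- soma (top) and the saline GFP+ germ cells (bottom), each the mean of 3 libraries; blank cells are paralogs the mouse does not have or a gene not reported here. The soma filled groups 4 to 10, up to 36.7 FPKM for Hoxa5, whereas the germ cells stood out at Hoxd8 (23.0), Hoxa4 (5.63), Hoxd1 (5.57) and Hoxa13 (4.98).

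In germ cells fewer HOX genes were detected, and another gene led them. Their HOX transcripts summed to 114 to 121 CPM in saline and 116 to 129 CPM with dex, against 692 to 812 CPM in the soma, and 14 genes (saline) or 16 (dex) exceeded 3 counts in all 3 libraries. A single gene, Hoxd8, supplied 52.6 to 56.8% of all HOX counts in the germ libraries, while it supplied 4.70 to 6.35% in the soma. The D cluster accordingly held 63.0 ± 2.01% of the summed HOX FPKM of saline germ cells (SD, n = 3), the A cluster 27.6 ± 3.53%, the C cluster 7.26 ± 1.70% and the B cluster 2.16 ± 0.337%. The D share was at least 61.6% in each germ library and at most 18.7% in each somatic one, so the 2 cell types did not overlap.

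**Figure D2:**
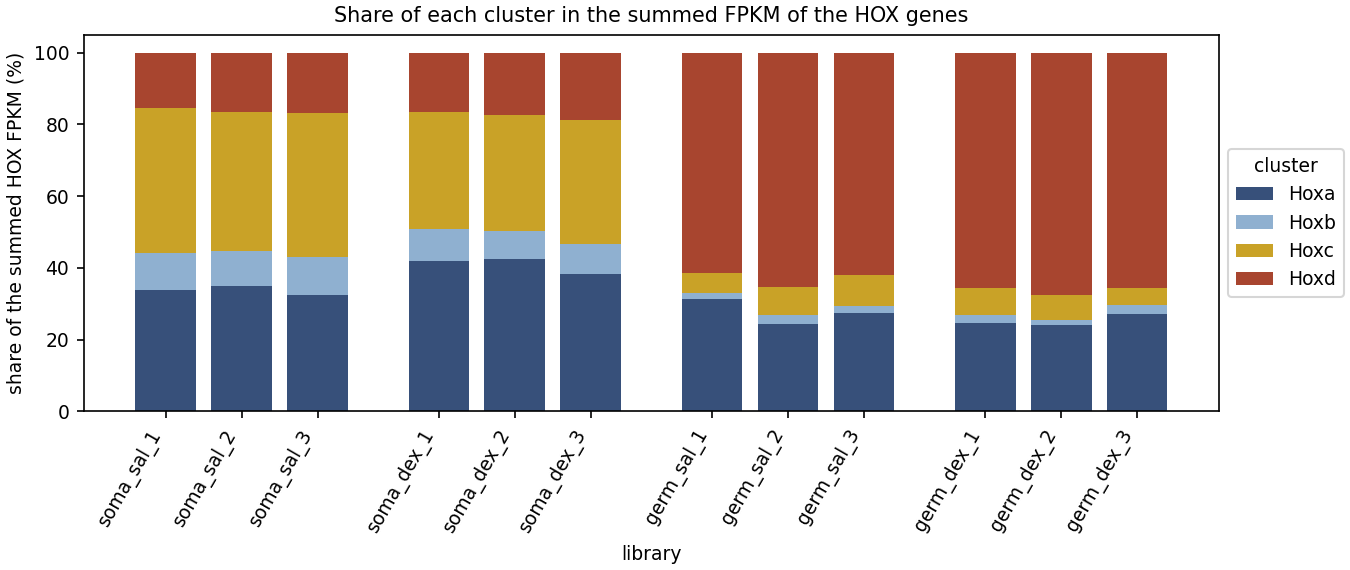
Share (%) of each cluster in the summed FPKM of the 39 HOX genes, 1 bar per library, with the 3 replicates of a group side by side. The Hoxd share was 61.6 to 67.5% in germ cells and 15.47 to 18.75% in the soma, and within the soma the Hoxa share was 38.4 to 42.6% with dex and 32.3 to 34.9% with saline.

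Hoxd8, a central D cluster gene that acts in axial patterning, was the leading transcript (chromosome 2, 74704615 to 74707933, plus strand). It was counted 958, 1078 and 1098 times in the saline germ libraries and 1117, 1022 and 1097 times in the dex ones, or 61.8, 63.6 and 63.7 CPM and 73.0, 66.2 and 65.5 CPM. In the soma it was at 39.8, 32.9 and 39 CPM with saline and at 51.6, 43.3 and 39.6 CPM with dex. Every germ library was above every somatic library of the same treatment. The difference between germ and soma was 0.76 on the log2 scale in saline (SE 0.09, adjusted p = 1.14e-06, edgeR) and 0.57 with dex (SE 0.10, adjusted p = 0.000316).

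Hoxa4, a cervical patterning gene (chromosome 6, 52189671 to 52191753, minus strand), had a mean of 5.63 ± 0.744 FPKM in saline germ cells, which did not separate it from Hoxd1 at 5.57 ± 0.225 FPKM. With dex Hoxd1 had the higher mean (6.57 against 5.73 FPKM) and lay above Hoxa4 within each germ library, though the ranges overlapped. The Hoxa4 level was 9.03, 7.79 and 10.0 CPM in saline germ cells and 8.70, 8.10 and 10.7 CPM in dex germ cells, against 6.58, 4.52 and 4.36 CPM and 5.67, 6.36 and 4.70 CPM in the soma. The germ libraries were again all above the somatic ones, by 0.79 on the log2 scale in saline (SE 0.21, adjusted p = 0.00268, edgeR) and 0.68 with dex (SE 0.20, adjusted p = 0.00896). An antisense gene model covers 16% of the Hoxa4 exon bases, and how strand was handled in counting is not given in the sources used here.

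Hoxd1 and the paralog group 13 genes Hoxa13, Hoxc13 and Hoxd13 were counted in germ cells while the soma was near or at 0. Hoxd1, the 3' terminal gene of its cluster, which acts in pain-sensing neurons of the mouse, is at chromosome 2, 74762980 to 74765142 (plus strand). It had 162, 169 and 183 counts in saline germ cells and 182, 174 and 228 with dex, against 3, 9 and 3 and 1, 8 and 2 counts in the soma. In FPKM this was 5.67, 5.31 and 5.73 against 0.0985, 0.302 and 0.0949 in saline. All 6 germ libraries lay far above all 6 somatic libraries, 4 of which were at or under the floor, and the log2 difference was 5.01 in saline (SE 0.34, adjusted p = 1.89e-09, edgeR).

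Hoxa13, which patterns the distal limb, hindgut and genital tubercle, lies at the 5' end of its cluster (chromosome 6, 52257694 to 52260880, minus strand). The 3 saline germ libraries held 210, 182 and 217 counts and the 3 dex ones 166, 136 and 184. None of the saline somatic libraries had a count, and 1 of the dex somatic libraries had 1 count. Set against the floor of 3 counts per library, Hoxa13 counts were at least 65.4-fold higher in germ than in soma with saline.

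Hoxc13, a gene of hair and nail formation at the 5' end of the C cluster (chromosome 15, 102921103 to 102928814, plus strand), was counted 71, 84 and 105 times in saline germ cells and 90, 44 and 53 times with dex. No somatic library held a count, and against the same floor germ levels were at least 27.7-fold higher with saline and at least 22.7-fold higher with dex. Hoxd13, which shapes digits, had 27, 20 and 35 counts in saline germ cells and 22, 10 and 22 with dex. The soma had 2, 0 and 6 counts in saline and 10, 3 and 8 with dex, so that with dex the lowest germ library equalled the highest somatic one in raw counts. The log2 difference of Hoxd13 was 3.25 in saline (SE 0.63, adjusted p = 0.000199, edgeR) and 1.42 with dex (SE 0.55, adjusted p = 0.0309), and the latter call was lost with DESeq2 (adjusted p = 0.0728) and without 4 of the 6 libraries in turn (germ replicates 1 and 3 and soma replicates 2 and 3, adjusted p = 0.0573 to 0.108). The group 13 genes together summed to 7.83 FPKM in saline germ cells and to 0.0639 FPKM in saline soma, while their neighbours of groups 11 and 12 were at 0.166 and 0 FPKM in the germ cells. Hoxb13, the remaining gene of the group, did not exceed the floor in all libraries of any group.

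Hoxb9, a thoracic gene, was the only B cluster gene above 3 counts in every germ library. It stood at 2.19, 1.95 and 1.86 CPM in saline germ cells and 5.83, 3.16 and 5.09 CPM in saline soma, so the germ level was 42.6% of the somatic one (log2 difference -1.23, SE 0.29, adjusted p = 0.000961, edgeR). With dex it was at 2.16, 1.04 and 2.09 CPM in germ cells and 4.65, 4.16 and 3.70 CPM in soma, or 42.2%.

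**Figure D3:**
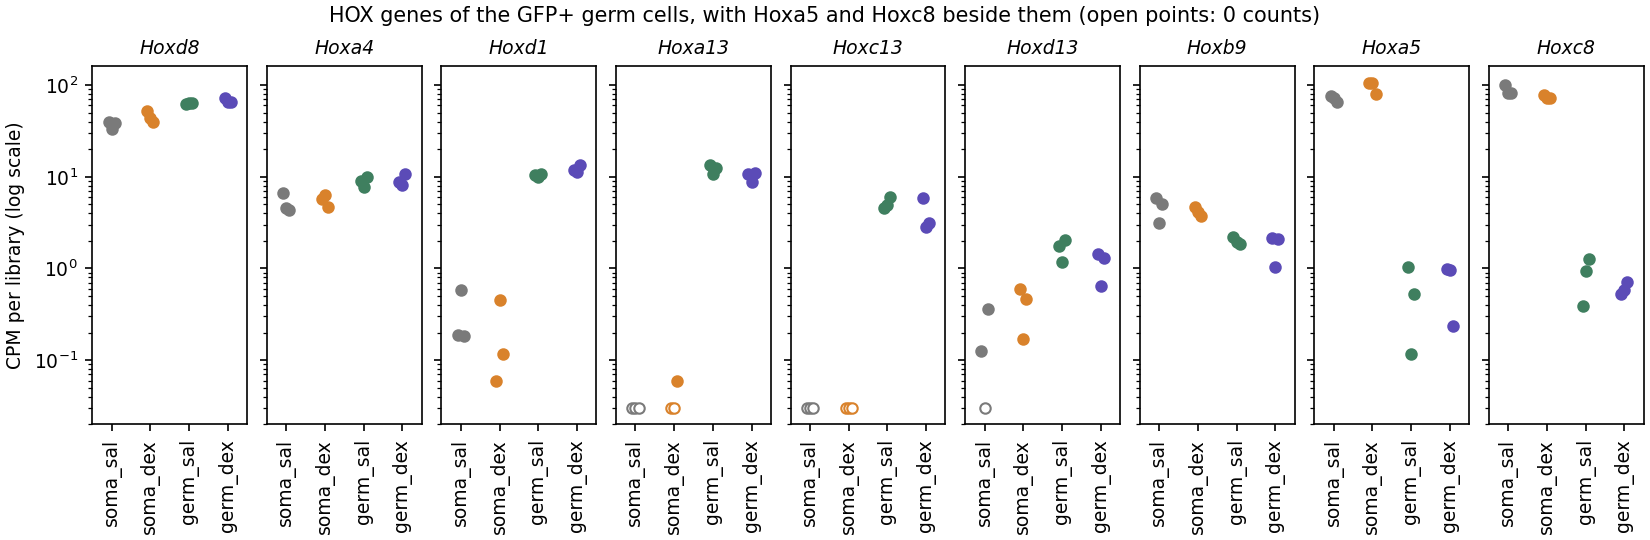
CPM (log scale) of 7 HOX genes of the germ cells and of Hoxa5 and Hoxc8, 1 point per library in the 4 groups; open points at the bottom are libraries with 0 counts. Hoxd1, Hoxa13 and Hoxc13 lay near 10 CPM or a few CPM in germ cells and near or at 0 in the soma, while Hoxa5 and Hoxc8 were near 100 CPM in the soma and near 1 CPM in germ cells.

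Most of the remaining HOX genes were lower in germ cells. In saline 33 identifiers passed the filter on low counts and all 33 differed between germ and soma, 6 higher in germ cells (Hoxa4, Hoxa13, Hoxc13, Hoxd1, Hoxd8 and Hoxd13) and 27 lower, by edgeR's quasi-likelihood test with Benjamini-Hochberg adjustment at 0.05. With dex, 34 passed and 34 differed, the same 6 higher and 28 lower. Since 43.1% of all 17941 genes tested were higher in germ cells and 42.9% lower in saline, and 42% and 42.2% of 18171 with dex, a call as such does not set the HOX genes apart, and a gene could pass the filter through the group where it was high. The 27 log2 differences ranged from -1.23 for Hoxb9 to -8.78 for Hoxb5. Hoxa3 kept 10.8% of its somatic level in germ cells, and 24 of the lower genes kept 5.41% or less.

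The germ libraries also held a low level of somatic transcripts. A list of 44 somatic marker genes had median levels of 1.77 to 3.51% of the saline soma in the 3 saline germ libraries and 2.17 to 5.06% of the dex soma in the dex ones. Over 31 and 32 HOX genes detected in the soma the medians were 0.597 to 1.89% and 1.19 to 1.91%. HOX genes such as Hoxa5 (0.786% in saline), Hoxa6 (0.656%), Hoxc8 (0.979%), Hoxc6 (1.75%) and Hoxd9 (1.40%) were therefore at or below the share that somatic markers had in the same libraries, whereas Hoxd8, Hoxa4, Hoxd1, Hoxa13, Hoxc13, Hoxd13 and Hoxb9 were far above it. Between them lay further genes that exceeded the marker medians in saline, among them Hoxa3 (10.8%) and Hoxa10 (5.41%). The means of Hoxa11 (4.38%), Hoxd3 (4.21%) and Hoxd11 (4.19%) did so too, but were at or near the floor. These 3 genes had 3 to 4, 0 to 7 and 3 to 8 counts per saline germ library. With dex, Hoxa3 (10.4%) was again above the medians and Hoxa10 (3.97%) lay within their range. Hoxd3 (3.65%), Hoxa11 (1.23%) and Hoxd11 (1.39%) had at most 4 counts in any dex germ library, too few to place them. Single markers spread widely around the medians, with upper quartiles of 6.83 to 8.20% in saline germ libraries and 6.85 to 16.0% in dex ones. The 9 pregranulosa markers ran from 1.84% (Wnt4) to 11.1% (Foxl2) in saline and from 3.21% (Lgr5) to 18.4% (Foxl2) with dex. Hoxa3 and Hoxa10 thus lay within the range of single somatic markers. Other gene models share 27.1% of the Hoxa3 exon bases. In such bulk samples fewer cells of a type and less RNA per cell cannot be told apart.

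Genes beside the HOX genes were compared in the same way. Of 46 other annotated genes inside the 4 spans, 32 had a count and 15 passed the filter between germ and soma in saline, with 14 lower in germ cells and 1 higher. Of all 17941 genes tested, 42.9% were lower and 43.1% higher. Some of the 15, such as Hoxaas2, Hoxaas3 and Hoxa11os, share exon bases with HOX genes. Without the strand setting their counts may not be separate from those of the HOX genes. The gene inside a span that was higher was 9530018H14Rik, a gene model next to Hoxa13 that awaits experimental proof, at 1.48 ± 0.523 CPM in germ cells against 0.0430 CPM in saline soma. Beyond the A cluster, 52.6 kb from Hoxa13, the homeobox gene Evx1 was at 2.51 FPKM in saline germ cells and had no count in any somatic library. These 2 genes were named after their values were seen.

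RefSeq start windows, from 250 bases before to 50 after the start, were at hand for 22 of the 39 genes. Windows for Hoxa4, Hoxb9, Hoxc5 and Hoxc13 were not among them. The median window of the 22 had 56.8% G + C and 13.5 CG dinucleotides, against 52.7% and 7 over 27025 windows of all genes, and 68.2% of the HOX windows held 10 or more CG dinucleotides against 43.9% of all. Ranked by G + C within the 22, Hoxa13 (81.0%), Hoxd13 (74.3%) and Hoxd1 (69.7%), which were germ-rich, came 1st, 2nd and 3rd, while Hoxd8 (46.7%), which was too, came 18th. The core of the glucocorticoid receptor element, GNACANNNTGTNC on either strand, was in none of the 22 windows and in 125 of the 27025 (0.463%), and nothing about receptor binding follows from letters missing in so short a window.

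The second question was whether dex moved HOX transcripts, first in the germ cells. Of the 40 identifiers 15 passed the filter in the germ libraries and none was called, by edgeR or by DESeq2 (0 called). By edgeR 0.208% of the 16857 genes tested were called. An unadjusted p under 0.05 was reached by 0 of the 15, against 11.6% of all genes tested. The 15 log2 differences ranged from -0.52 (Hoxd13) to 0.45 (Hoxd9) with a median of -0.10, against 0.01 for all genes. Hoxd1 had the lowest p. Its levels of 11.9, 11.3 and 13.6 CPM with dex were all above the 10.5, 9.98 and 10.6 CPM with saline, and the log2 difference was 0.26 (SE 0.14, unadjusted p = 0.0945, adjusted p = 0.523). Hoxd8 was the other gene whose dex libraries all exceeded the saline ones (0.13, SE 0.08, adjusted p = 0.533), so that 2 of 15 did not overlap against 16.9% of all genes tested.

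Hoxa13 was at 10.9, 8.81 and 11 CPM with dex and 13.5, 10.7 and 12.6 CPM with saline (-0.25, SE 0.16, adjusted p = 0.598), and the groups overlapped. Hoxc13, at 5.88, 2.85 and 3.16 CPM against 4.58, 4.96 and 6.09 CPM, overlapped too (-0.37, SE 0.28, adjusted p = 0.652). For the low germ genes the error was wide, as for Hoxa5 (0.41, SE 0.70) and Hoxc8 (-0.50, SE 0.50), so that changes of that size were not detectable at this depth.

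In the soma, dex left the summed HOX level within the spread of the pools, at 692 to 812 CPM against 699 to 757 CPM, while A cluster genes lay higher and B and C cluster genes lower. Of 31 identifiers tested, 4 were called (12.9%), where 8.18% of the 16556 genes tested were called in any direction, 4.81% higher and 3.36% lower. The 3 that rose were Hoxa5, Hoxa10 and Hoxa11, and Hoxc5 fell. With an unadjusted p under 0.05 there were 10 of the 31, against 20.9% of all genes tested. The share of the 31 called is thus of the order of the background.

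Hoxa5 (chromosome 6, 52201754 to 52204587, minus strand) was at 107, 106 and 79.1 CPM in the 3 dex libraries and 75.3, 71.6 and 65.9 CPM in the saline ones. Every dex library was above every saline library, though dex replicate 3 exceeded the highest saline library by little. The log2 difference was 0.46 (SE 0.10, adjusted p = 0.0130, edgeR), and the call was lost without dex replicate 2 (adjusted p = 0.0767), saline replicate 2 (0.0529) or 3 (0.0864), or dex replicate 1 (0.0535).

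Hoxa10, which patterns the uterus (chromosome 6, 52231197 to 52240854, minus strand), stood at 46.4, 38.6 and 40.2 CPM with dex and 33.6, 33.9 and 32.4 CPM with saline. The groups did not overlap, and the saline libraries lay within 2 CPM of each other. The log2 difference was 0.33 (SE 0.09, adjusted p = 0.0381, edgeR), and the adjusted p was 0.109 to 0.154 without dex replicate 1 or any one of the 3 saline replicates.

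Hoxa11, which acts beside Hoxa10 in the uterus and in the limb (chromosome 6, 52242106 to 52245810, minus strand), was at 9.91, 7.09 and 7.81 CPM with dex and 3.64, 4.26 and 6.0 CPM with saline. Again all dex libraries were above all saline ones, the gap between the groups being smaller than the spread within either. The log2 difference was 0.84 (SE 0.22, adjusted p = 0.0342, edgeR) and the adjusted p was 0.124, 0.148 and 0.130 without dex replicate 1, saline replicate 1 and saline replicate 2. Its exons share 35% of their bases with the antisense gene Hoxa11os, which was at 4.82 ± 1.74 CPM with dex and 2.82 ± 0.780 CPM with saline (log2 difference 0.77, adjusted p = 0.180). Reads of the pair could not be told apart without the strand setting.

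Hoxc5, a cervical and thoracic gene (chromosome 15, 102967443 to 103017429, plus strand), was the one that fell. It was at 34.3, 32.9 and 35.5 CPM with dex and 49.7, 42.5 and 44.2 CPM with saline, so that the groups did not overlap and the dex libraries were the tighter group. The log2 difference was -0.40 (SE 0.09, adjusted p = 0.0107, edgeR), the lowest p of the 31, and the call was lost without saline replicate 1 (adjusted p = 0.0653). A long Hoxc5 gene model shares 5.37% of its exon bases with Hoxc10.

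**Figure D4:**
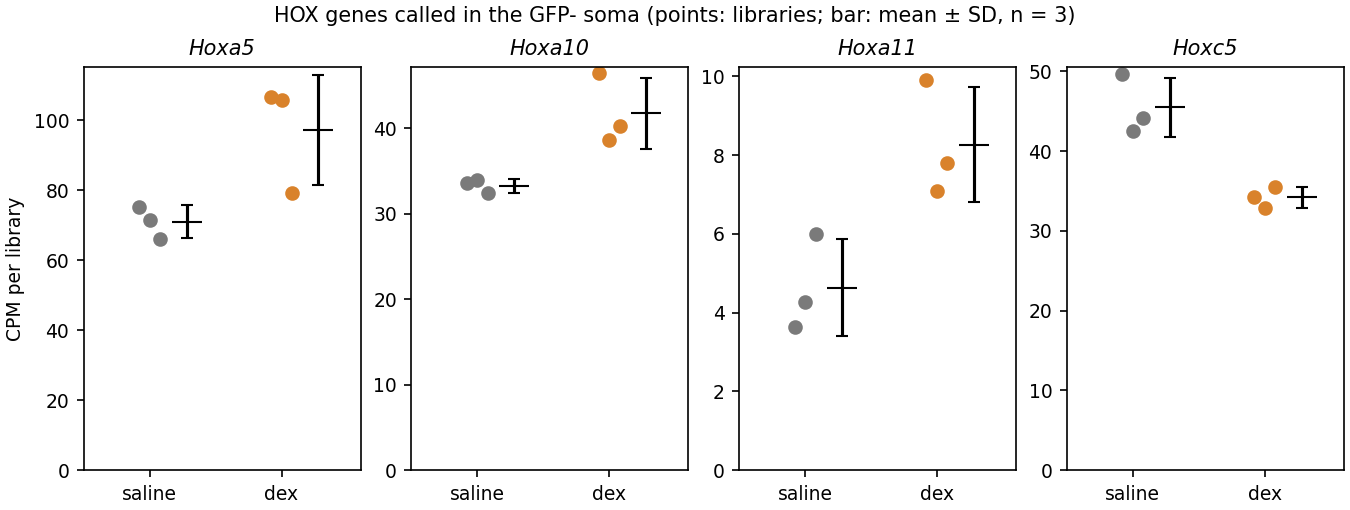
CPM per library (points) with mean ± SD (bars, n = 3) of the 4 HOX genes called in the GFP- soma, saline beside dex, each axis starting at 0. All 3 dex libraries lay above the 3 saline libraries for Hoxa5, Hoxa10 and Hoxa11 and below them for Hoxc5.

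Of the A cluster genes tested in the soma, 9 of 10 had a log2 difference above 0 (median 0.28). In the B cluster 7 of 8 were below 0 (median -0.27) and in the C cluster 6 of 7 (median -0.21), while 4 of 6 were above 0 in the D cluster (median 0.11). The exceptions in B and C were Hoxb8 (0.32, SE 0.18) and Hoxc11 (0.95, SE 0.54). The median of all genes tested was 0.00014. Genes of a cluster were measured in the same 6 libraries, so they are not independent, and no difference between clusters was tested.

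As shares of the summed HOX FPKM, the A cluster went from 33.7, 34.9 and 32.3% in saline to 41.8, 42.6 and 38.4% with dex. The C cluster went from 40.3, 38.8 and 39.9% to 32.6, 32.4 and 34.6%, and the B cluster from 10.5, 9.82 and 10.8% to 9.16, 7.70 and 8.27%. None of these 3 pairs of groups overlapped. The D share overlapped, at 15.47, 16.5 and 17.0% in saline and 16.5, 17.3 and 18.7% with dex. A share of a sum can fall in one cluster because it rises in another, so that these 4 shares are one description and not 4.

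Within the A cluster, Hoxa6 was at 21.0, 19.8 and 16.3 CPM with dex and 15.8, 15.7 and 15.2 CPM with saline (0.30, SE 0.13, adjusted p = 0.191), and did not overlap. In the C cluster Hoxc8 was at 78.2, 71.6 and 72.0 CPM with dex against 101, 82.3 and 82.7 CPM with saline (-0.26, SE 0.08, adjusted p = 0.0822), also without overlap. Hoxc6, next to it, was at 76.2, 74.3 and 63.0 CPM against 76.4, 65.0 and 77.5 CPM, which overlapped (-0.03, SE 0.09). Of the other leading genes, Hoxb6 was at 19.6, 11.4 and 13.4 CPM with dex and 19.3, 15.7 and 18.7 CPM with saline, and Hoxb7 at 7.94, 5.57 and 5.69 CPM against 6.58, 7.16 and 8.18 CPM. Both overlapped between the groups. Hoxd9 stood at 50.5, 51.7 and 52.2 CPM with dex and at 41.5, 47.2 and 50.6 CPM with saline, and dex replicate 1 fell just short of the highest saline library. In all, the 3 dex and 3 saline libraries did not overlap for 10 of the 31, of which Hoxa2, Hoxa5, Hoxa6, Hoxa10, Hoxa11 and Hoxb8 were above and Hoxb4, Hoxc4, Hoxc5 and Hoxc8 below. The same was so for 25.6% of all genes tested.

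**Figure D5:**
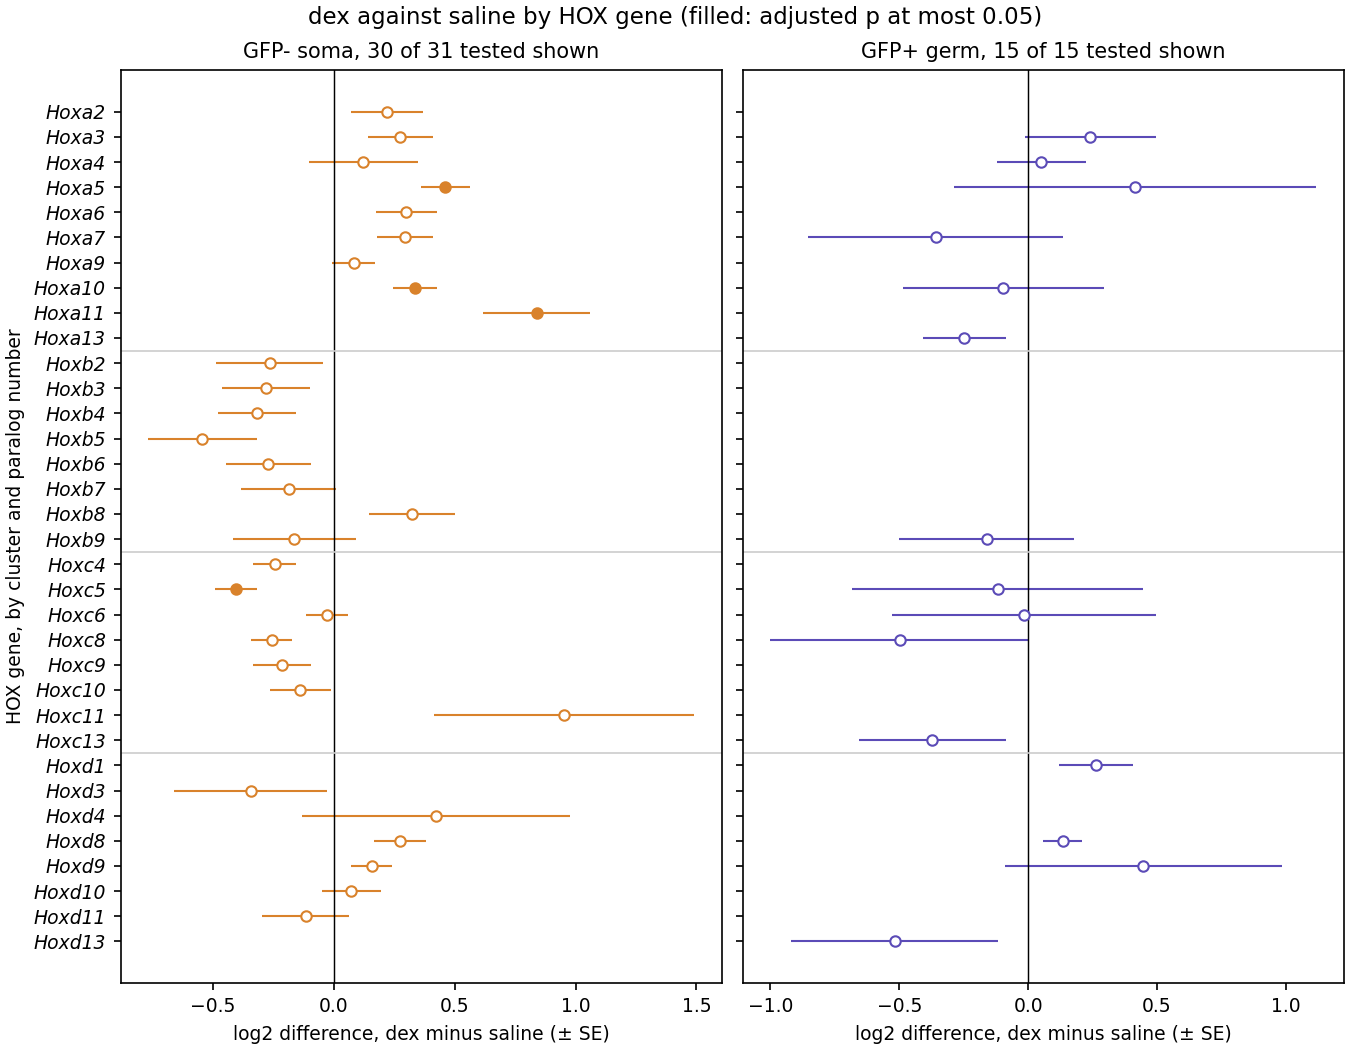
Log2 difference between dex and saline (± SE) for 30 of the 31 HOX genes tested in the GFP- soma (left) and the 15 tested in the GFP+ germ cells (right), ordered by cluster and paralog number with grey lines between clusters; filled points passed an adjusted p of 0.05. In the soma 9 A cluster genes lay above 0 and 7 of 8 B cluster genes below it, with 4 genes called, and in germ cells none was called.

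Levels of some cell type markers in the sorted soma differed with treatment as well. A change in the number of cells of a type cannot be told apart here from one in RNA per cell. Summed macrophage markers were at 21.6 to 55.1 CPM with dex and 93.0 to 126 CPM with saline, 4 of 5 called lower, and among 8 stromal markers Pdgfra was called higher, the summed level being 19400 to 25620 CPM against 20788 to 23157 CPM. Markers of mesonephric epithelium, a tissue rich in HOX transcripts that had been cut away, summed to 154 to 199 CPM with dex and 170 to 195 CPM with saline, with 0 of 7 tested called. Summed pregranulosa markers were at 671 to 955 CPM against 877 to 905 CPM (1 of 9 called, lower), and surface epithelium markers at 269 to 406 CPM against 340 to 415 CPM (0 of 5 called). Perivascular markers summed to 751 to 941 CPM with dex and 790 to 813 CPM with saline (1 of 5 called, Cspg4, higher), and endothelial markers to 255 to 285 CPM against 279 to 314 CPM (Emcn called higher and Cdh5 lower, of 5). Germ cell markers in the soma summed to 15.2 to 20.5 CPM with dex and 2.95 to 6.20 CPM with saline, without overlap. Of the 4 tested 1 was called, Dazl, higher, and most of the rise in the sum was its own (1.17 CPM with saline, 12.6 CPM with dex). Erythroid markers varied most, at 3059 to 15360 CPM with dex and 7055 to 11710 CPM with saline (0 of 5 called). The part of these shifts in the HOX differences was not tested.

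Whether the dex effect differed between germ and soma was tested directly for 35 identifiers, and none was called (0 by DESeq2 as well), where 1.62% of 19390 genes were. An unadjusted p under 0.05 was reached by 4, Hoxa2, Hoxb3, Hoxc4 and Hoxc10, against 15.4% of all genes tested. Hoxa2, Hoxb3 and Hoxc10 had at most 5 counts in any germ library. Hoxc4 had 24 counts in germ dex replicate 2 and at most 6 in every other germ library. The difference, germ minus soma, was -0.06 for Hoxa5 (SE 0.65), -0.43 for Hoxa10 (SE 0.33), -1.73 for Hoxa11 (SE 0.85) and 0.26 for Hoxc5 (SE 0.43), with standard errors about as large as, or larger than, the differences seen in the soma itself.

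Transcripts of proteins that work with HOX proteins or on HOX clusters were counted beside the 8.18% of all genes called in the soma. Of 9 TALE cofactors tested, 1 was called in the soma, Meis2, a DNA-binding partner of HOX proteins, which went from 189 ± 10.3 to 151 ± 4.76 CPM (log2 difference -0.32, SE 0.06, adjusted p = 0.00673, edgeR). None was called in germ cells. Between cell types 8 of 9 were lower in saline germ cells and 1 higher (median log2 difference -4.28). In that comparison 42.9% of all 17941 genes tested were lower in germ cells and 43.1% higher. The cofactor with the highest level per length in saline soma was Pbx2, at 37.3 FPKM against 12.9 FPKM in germ cells.

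Among 11 genes of Polycomb repressive complex 2, 2 were called in the soma, in opposite directions. Rbbp7, a histone-binding subunit shared with other chromatin complexes, rose from 307 ± 7.90 to 483 ± 16.5 CPM (0.66, SE 0.06, adjusted p = 1.42e-05, edgeR), and was also the highest of the list at 103 FPKM in saline soma. Phf1, an accessory subunit that reads histone methylation, fell from 51.2 ± 2.87 to 36.9 ± 1.81 CPM (-0.46, SE 0.08, adjusted p = 0.00296, edgeR). In germ cells Rbbp7 was at 240 ± 20.4 CPM with dex and 263 ± 20.3 CPM with saline (-0.11, adjusted p = 0.583), and none of the 11 was called. None of 19 genes of Polycomb repressive complex 1 (led by Cbx6, 31.8 FPKM in saline soma), of 11 trithorax and H3K27 demethylase genes (led by Kdm6b, 29.4 FPKM) or of 5 upstream inputs tested (led by Ctcf, 27.5 FPKM) was called in either cell type. Of the genes annotated within the clusters other than the 39, 16 were tested in the soma and 0 called. Of the 3 protein coding genes flanking each cluster on either side, Tax1bp1 (453 kb beyond the A cluster; 0.31, adjusted p = 0.00653), Atf7 (296 kb beyond C; 0.30, adjusted p = 0.00488) and Nfe2l2 (910 kb beyond D; 0.47, adjusted p = 0.00251) were called higher in the soma, and none in germ cells.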

How the data were processed

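Poly(A) RNA of 12 sorted fetal ovary samples was sequenced paired-end. The deposited table held, per the labels and the authors' methods, raw read counts per gene (HISAT2 2.0.5 on mm10, featureCounts 1.5.0-p3) and the authors' FPKM, which divide those counts by gene length and depth. The strand setting and the treatment of multiply mapped reads were not given in the sources used here, and the authors' own tests used DESeq2 1.20.0. Groups came from the labels, with 3 libraries each, and each library pooled embryos. No 2 libraries held identical counts.

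Counts were tested over all genes with edgeR 4.0.16 in R 4.3.3 (quasi-likelihood, TMM scaling, filterByExpr, Benjamini-Hochberg adjustment, threshold 0.05), with only the groups of a comparison in each fit and all 4 groups for the difference of the dex effect. Standard errors were taken from the log2 difference and its F value. Levels were compared between libraries in TMM-scaled CPM and between genes in FPKM. Folds against groups with no count used a floor of 3 counts per library. The fits were tested on simulated data. The HOX genes and the gene lists were chosen with earlier results of these data known. Values in every library are given for genes called with dex, the 2 highest per cluster in saline soma, genes higher in saline germ cells or at 25% or more of the somatic level there, and the lowest p with dex in each cell type. Exon overlaps came from GENCODE M21 (GRCm38), in which 39 of the 40 identifiers were found, 38 with the same coordinates, and 16 shared exon bases with another gene, more than 50% of them in Hoxb3 (52.9%), Hoxd3 (62.8%) and the second Hoxd4 model (52.3%). Start windows came from RefSeq (GRCm38.p6). DESeq2 1.42.0, size factors of the RLE kind, no low-count filter, a replicate block and leaving out each library in turn were alternatives. Intervals and floors cover counting error only. One HOX gene is counted in the totals but not reported here.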

Additional observations from a re-analysis of the deposited data

Results flagged for a closer look

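None of the 39 HOX genes differed in its dex response between germ and somatic cells by the test of that difference, and none moved without overlap in opposite directions in the 2 cell types. Groups of 3 libraries were too small for a search for single libraries far from the rest. Among the cofactor, chromatin and upstream input genes and those inside or flanking the clusters, 3 differed in that test with all 4 groups in 1 fit. Cell type markers were left out of this search. The test was edgeR's quasi-likelihood test with Benjamini-Hochberg adjustment, in which 1.62% of all 19390 genes tested were called. The 3 were also called with dex in the soma, whose libraries the test shares. Rbbp7, of Polycomb repressive complex 2, had a dex effect lower in germ cells than in soma by -0.79 on the log2 scale (SE 0.10, adjusted p = 0.00038). Tax1bp1, beyond the A cluster, differed by -0.45 (adjusted p = 0.0149) and Nfe2l2, beyond the D cluster, by -0.58 (adjusted p = 0.017).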

How the results depend on the processing

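Between germ and soma, 33 to 36 HOX identifiers were called in saline and 33 to 36 with dex under every alternative tried, among them the 6 genes higher in saline germ cells, while Hoxd13 with dex lost its call as given above. No HOX gene was called in germ cells with dex, or for the difference between cell types, under any alternative. The 4 calls in the soma were made again with DESeq2 (4) and RLE factors (4), and 6 genes were called with no low-count filter (Hoxb5 and Hoxc8 added). Leaving out single libraries gave 1 to 7 calls, namely 1 without dex replicate 1 (Hoxc5) or saline replicate 1 (Hoxa5), 2 without saline replicate 2 or 3, 3 without dex replicate 2 and 7 without dex replicate 3. No gene was called in all of these. Over the alternatives the adjusted p ran from 2.06e-07 to 0.0864 for Hoxa5, 0.0238 to 0.154 for Hoxa10, 0.00357 to 0.148 for Hoxa11 and 0.000822 to 0.0653 for Hoxc5, with unchanged direction.

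The difference between cell types changed sign for 2 genes when a library was left out. For Hoxa5 it was 0.40 without germ dex replicate 3, 0.70 without germ saline replicate 1, 0.03 without soma dex replicate 1 and 0.02 without soma dex replicate 2, and for Hoxa10 0.017 without germ saline replicate 1. The lowest values were -0.54 (Hoxa5) and -0.72 (Hoxa10), both without germ saline replicate 2. The cause was not tested.

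With the replicate number as a block, 5 HOX genes were called in the soma (Hoxc8 added) and 0 in germ cells, 33 between germ and soma in saline, 34 with dex, and 0 for the difference. Deviations of same-numbered dex and saline libraries correlated at 0.215, 0.0131 and 0.0684 in germ cells and 0.116, -0.0165 and 0.0548 in soma, so the numbers were not taken as pairing; between germ and soma each library correlated best with its own number (0.0798 to 0.134). Over all genes the germ dex count was 35 with edgeR, 158 with DESeq2 and 420 with no filter. Cluster shares from TMM counts per kilobase equal those from FPKM by construction, because the library scale cancels in a share, so they were no check. The median germ level of HOX genes of at least 1 FPKM in saline soma was 0.597 to 1.89% of the soma.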
